A study of Mus musculus with 2 samples.

Results

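The genes described here are the cytokine Tnf, 3 interleukin genes and the receptors that read them: Tnf, Il6, Il10 and Il12b as ligands, Tnfrsf1a, Tnfrsf1b, Il6ra, Il6st and Il10ra as receptor chains, and Tnfaip2, a gene induced by tumour necrosis factor. The 10 genes were given as a list, by name, among 19537 gene rows of the series. Of these 10 genes, 9 were analysed and Il10 was not analysed here. Microglia, the macrophages that reside in brain tissue, were sorted as CD11b+CD45int cells out of brains from mice lacking PARK7/DJ-1 (KO) or from their wildtype (WT) littermates, and their transcripts were counted with the Drop-seq technology, where the bead caught with a cell gives its transcripts a common barcode and a unique molecular identifier (UMI) marks each captured transcript molecule. The comparison asks how microglia without DJ-1, whose loss causes an early-onset form of Parkinson's disease, respond to systemic inflammation.

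There were 2 groups, KO LPS and WT LPS, with 1 library each. The KO mice carried a gene-trap allele of Park7 on a C57BL/6NCrl background, so that the gene was disrupted in every cell type and not only in microglia. All mice of both groups were 3 to 4 months old and had received 1 intraperitoneal injection of lipopolysaccharide (LPS), a bacterial cell wall component, at 4 µg per g body weight, 24 h before isolation. Each library pooled 2 mice, 1 female and 1 male. No uninjected library was used, so that the values below are levels after LPS and not responses to it. With 1 library per genotype there is no replicate, no test was made between the genotypes, and genotype cannot be told apart from library. The 95% intervals given below cover counting error only.

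Tumour necrosis factor is made by activated microglia and macrophages as a membrane protein that is shed by a protease, and it acts through TNFR1 (Tnfrsf1a), which can signal inflammation or cell death, and TNFR2 (Tnfrsf1b), which is found mostly on immune and endothelial cells. Interleukin 6 binds its receptor chain Il6ra and then the shared signal transducer gp130 (Il6st), which activates the kinase JAK and the transcription factor STAT. Interleukin 10 is the main cytokine that limits macrophage inflammation, and Il10ra is its ligand-binding chain. Il12b encodes a subunit shared by the cytokines that drive helper T cells. Transcripts of such cytokines are short-lived and are switched on by NF-kappaB, whereas several of the receptors are also made by resting microglia.

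Cells were barcodes with at least 500 UMIs and at least 100 genes, which gave 320 cells in KO LPS compared with 1427 cells in WT LPS out of 9999 barcodes in each library. Of these cells, 35 in KO LPS and 179 in WT LPS had an undetermined base (N) in the barcode and were kept. The cells held 381305 UMIs in KO LPS compared with 1989011 UMIs in WT LPS, so that 1 UMI weighs far more in KO LPS. The median depth was 963.5 UMIs per cell in KO LPS against 1065 in WT LPS, and 0 cell barcodes were shared by the libraries. Levels are given as counts per 1e6 (CPM), a gene's UMIs being divided by all UMIs of the cells in its library. The targeted gene Park7 had 1 UMI in KO LPS compared with 323 UMIs in WT LPS, 2.62 and 162 CPM, as the labels say. The 14 microglia markers all had UMIs in both libraries, and 99.4% of KO LPS cells and 99.7% of WT LPS cells held at least 3 of their UMIs. Xist, the transcript of the silenced X chromosome in female cells, had a UMI in 209 cells of KO LPS compared with 645 cells of WT LPS, whereas 12 and 195 cells had a UMI of a Y-linked gene and none of Xist. Few KO LPS cells could therefore be assigned to the male mouse, and values within the Xist-positive cells are given beside the pooled ones.

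The ligands Tnf and Il12b and the TNF-induced gene Tnfaip2 were lower in KO LPS, while the receptor chains were level or modestly higher. Of the 9 genes analysed, 8 had at least 20 UMIs over both libraries, and Il6, with 17, did not. Of these 8 genes, 3 were at least 2-fold lower in KO LPS and 0 were at least 2-fold higher. Across all 9085 genes with at least 20 UMIs, 15.3% were at least 2-fold lower in KO LPS and 13.5% were at least 2-fold higher, so large differences in both directions were common between these libraries. Across those genes the log2 ratio (KO LPS divided by WT LPS) had a median of 0.03.

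**Figure D1:**
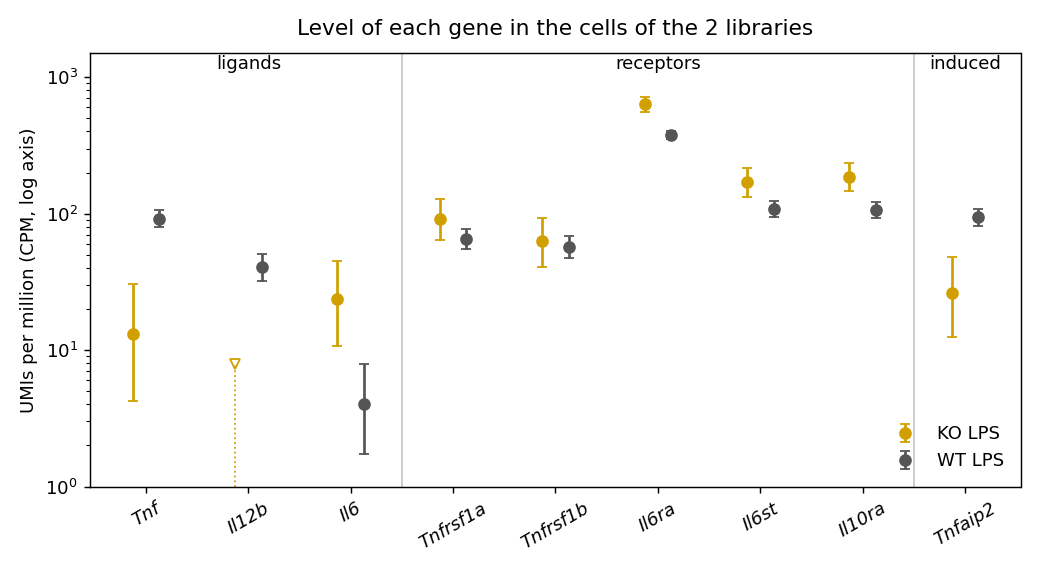
Level of the 9 genes in CPM (log axis) in KO LPS (yellow) and WT LPS (grey), 1 library each, with 95% Poisson intervals, and for Il12b in KO LPS (0 UMIs) an open triangle at the floor of 3 UMIs (7.87 CPM). Tnf, Il12b and Tnfaip2 lie lower in KO LPS, and the intervals of the libraries overlap for Tnfrsf1a and Tnfrsf1b.

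Tnf had 5 UMIs in KO LPS, 1 in each of 5 cells, and 183 UMIs in 136 cells of WT LPS. This corresponded to 13.1 CPM in KO LPS (4.26 to 30.6) compared with 92.0 CPM in WT LPS (79.2 to 106). It was thus 7.02-fold lower in KO LPS (2.95 to 21.9), a log2 ratio of -2.68. The intervals of the libraries did not overlap. The few KO LPS cells with Tnf were not all typical of the sort, since 1 of them held 18 UMIs of endothelial markers and 3 UMIs of microglia markers among its 2059 UMIs. The other 4 cells held 22 to 55 UMIs of microglia markers. Within the Xist-positive cells Tnf had 4 UMIs in KO LPS compared with 93 UMIs in WT LPS, which was 6.04-fold lower (2.28 to 22.6).

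Il12b was not listed in the KO LPS matrix, which was read as 0 UMIs in all 320 cells, and had 81 UMIs in 22 cells of WT LPS. The level in WT LPS was 40.7 CPM (32.3 to 50.6). Against a floor of 3 UMIs in the KO LPS library, 7.87 CPM, which is about the one-sided 95% limit of a count of 0, Il12b was at least 5.18-fold lower in KO LPS. This bound covers counting error only. Of the 81 UMIs in WT LPS, 62 came from 5 cells, and cells so rare can be missed among 320. Within the Xist-positive cells the counts were 0 and 32 UMIs, at least 2.77-fold lower against a floor of 3 UMIs. A share of 0 of 320 cells allows up to 0.938% of cells with a UMI in KO LPS by the same floor. At 500 UMIs per cell Il12b was found in 0.491% of WT LPS cells, below the 1.42% expected there from free RNA if its UMIs fell independently. Since its UMIs lay mostly in a few cells, as given below, this comparison cannot tell the share from background.

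Il6 was the ligand that did not go with the others. It had 9 UMIs in 7 cells of KO LPS compared with 8 UMIs in 7 cells of WT LPS. Because the KO LPS library was smaller, this corresponded to 23.6 CPM (10.8 to 44.8) against 4.02 CPM (1.74 to 7.93), a ratio of 5.87 (2.01 to 17.5). The 2 intervals did not overlap, but no cell of either library held more than 2 UMIs, and the count of 17 was below the limit set for counting a gene as changed. The Xist-positive cells gave 6 and 4 UMIs.

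The stretches of DNA just before the transcription start are shown for these ligands and for the receptor gene Il6ra, because Tnf and Il12b share a feature there that the receptor genes lack. Sequences and gene positions are those of RefSeq on the mouse build GRCm38.p6, and promoter entries were matched for 8 of the 10 genes (all but Il10 and Il10ra). Each run is the 250 bases before the start, 5′ to 3′ on the gene's strand, with the letters TATAA (searched on that strand 40 to 20 bases before the start) and matches to the NF-kappaB consensus (searched on both strands) in capitals. Tnf spans chr17:35199367-35202007 on the minus strand and its run is chr17:35202008-35202257. Il12b spans chr11:44400063-44414677 on the plus strand and its run is chr11:44399813-44400062. Il6 spans chr5:30013114-30019975 on the plus strand and its run is chr5:30012864-30013113. Il6ra spans chr3:89869324-89913196 on the minus strand and its run is chr3:89913197-89913446.
Tnf: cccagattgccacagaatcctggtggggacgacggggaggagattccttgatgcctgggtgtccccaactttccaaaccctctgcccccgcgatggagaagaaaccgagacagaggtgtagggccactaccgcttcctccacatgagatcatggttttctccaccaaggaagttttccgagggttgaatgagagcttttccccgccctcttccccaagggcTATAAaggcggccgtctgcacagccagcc
Il12b: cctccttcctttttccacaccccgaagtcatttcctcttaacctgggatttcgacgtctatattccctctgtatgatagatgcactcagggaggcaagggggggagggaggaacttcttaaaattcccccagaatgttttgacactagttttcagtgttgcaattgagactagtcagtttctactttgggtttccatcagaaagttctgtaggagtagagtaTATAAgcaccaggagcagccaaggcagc
Il6: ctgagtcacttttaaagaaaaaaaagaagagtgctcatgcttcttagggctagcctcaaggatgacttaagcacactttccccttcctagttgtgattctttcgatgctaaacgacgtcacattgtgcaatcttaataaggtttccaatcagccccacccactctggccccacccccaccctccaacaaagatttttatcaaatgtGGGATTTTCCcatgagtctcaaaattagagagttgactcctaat
Il6ra: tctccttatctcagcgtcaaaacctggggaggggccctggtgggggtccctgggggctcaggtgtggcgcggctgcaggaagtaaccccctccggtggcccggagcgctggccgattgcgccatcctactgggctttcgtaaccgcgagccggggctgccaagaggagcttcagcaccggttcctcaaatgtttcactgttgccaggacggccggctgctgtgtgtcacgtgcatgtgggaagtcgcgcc

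TATAA, the core of the TATA box that positions transcription in many sharply induced genes, began 29 bases before the start in Tnf and 28 bases before it in Il12b. It was present in 2 of 3 ligand genes and in 0 of 4 receptor genes, against 3.31% of all 32851 promoter entries. The NF-kappaB consensus was matched 44 bases before the start in Il6. In Tnfaip2 it was matched 24 bases before the start that the promoter entry uses, which lies inside the gene span printed below. It was thus matched in 1 of 3 ligand genes, neither Tnf nor Il12b, and in 0 of 4 receptor genes, against 7.25% of all entries. The G and C content was 57.6% in Tnf, 46% in Il12b and 42.8% in Il6, and 55.6% to 66% in the receptor genes. Tnfaip2, which was also lower in KO LPS, had no TATAA, nor did Il6. The TATAA search was chosen after the sequences had been viewed, and such matches in these windows describe letters only.

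Of the 5 receptor chains, 3 were higher in KO LPS by the 95% counting interval of the ratio, as were 19.6% of all genes with enough UMIs, while 18.7% were lower by it. Il6ra (chr3:89869324-89913196), which binds interleukin 6, had 242 UMIs in 153 cells of KO LPS compared with 753 UMIs in 502 cells of WT LPS. This corresponded to 635 CPM in KO LPS (557 to 720) compared with 379 CPM in WT LPS (352 to 407), a ratio of 1.68 (1.44 to 1.94). The intervals did not overlap, and the ratio was 1.67 (1.38 to 2.00) in the Xist-positive cells.

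Il6st (chr13:112464070-112506860), the gp130 chain that passes on the interleukin 6 signal, had 65 UMIs in KO LPS compared with 215 UMIs in WT LPS. That was 170 CPM (132 to 217) against 108 CPM (94.1 to 124), a ratio of 1.58 (1.18 to 2.09). In the Xist-positive cells the ratio was 1.24 with an interval that included equal levels (0.861 to 1.77), so that this difference was not detectable there.

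Il10ra (chr9:45253837-45269149), the chain that binds interleukin 10, had 71 UMIs in KO LPS compared with 213 UMIs in WT LPS. This corresponded to 186 CPM (145 to 235) and 107 CPM (93.2 to 122), a ratio of 1.74 (1.31 to 2.28), and 1.76 (1.22 to 2.50) in the Xist-positive cells. The partner chain Il10rb had 157 CPM in KO LPS compared with 193 CPM in WT LPS, which is a ratio of 0.817 (0.612 to 1.08), so the 2 chains of the interleukin 10 receptor did not go together.

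Neither receptor of tumour necrosis factor differed beyond counting error. Tnfrsf1a (chr6:125349723-125362483), the receptor with a death domain, had 35 UMIs and 91.8 CPM in KO LPS (63.9 to 128) compared with 130 UMIs and 65.4 CPM in WT LPS (54.6 to 77.6). This gave a ratio of 1.40 (0.938 to 2.05). Tnfrsf1b (chr4:145212368-145246870), which lacks a death domain, had 24 UMIs and 62.9 CPM in KO LPS (40.3 to 93.7) compared with 114 UMIs and 57.3 CPM in WT LPS (47.3 to 68.9), a ratio of 1.10 (0.676 to 1.72). The intervals leave room for a level in KO LPS from 0.676 times to 2.05 times that of WT LPS. Tnfrsf1a overlaps the protein-coding gene Plekhg6 on the opposite strand, and Il6, Il6ra, Il6st, Tnfrsf1b and Tnfaip2 overlap long non-coding genes there and Il10ra a processed pseudogene (GENCODE vM39), so part of their UMIs may belong to these genes if counting ignored the strand, which is not stated.

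Tnfaip2 (chr12:111442450-111455018), which encodes a protein of membrane protrusions and is induced by tumour necrosis factor and by LPS, had 10 UMIs in 9 cells of KO LPS compared with 187 UMIs in 117 cells of WT LPS. This corresponded to 26.2 CPM in KO LPS (12.6 to 48.2) compared with 94.0 CPM in WT LPS (81.0 to 108). It was 3.58-fold lower in KO LPS (1.91 to 7.60), and 5.02-fold lower (2.24 to 14.0) in the Xist-positive cells.

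**Figure D2:**
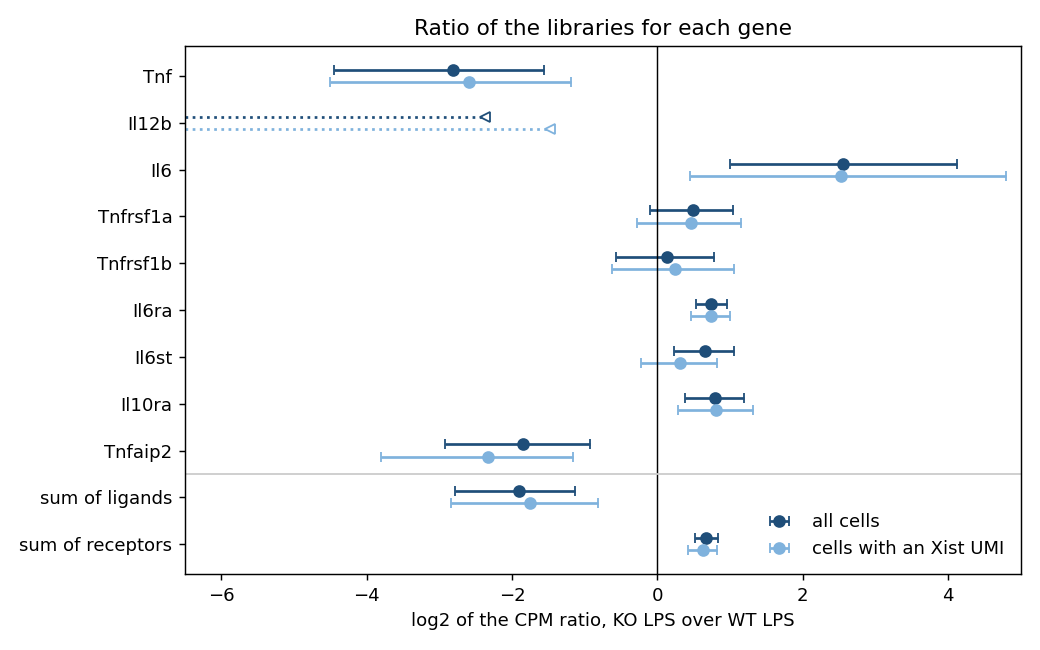
The log2 ratio of CPM, KO LPS over WT LPS, for each gene and for the summed ligands and receptors, with 95% exact intervals, over all cells (dark) and over cells with an Xist UMI (light), and an open triangle at the floor of 3 UMIs for Il12b, which had 0 UMIs in KO LPS. Tnf, Il12b, Tnfaip2 and the summed ligands lie left of 0 in both sets of cells, and Il6, Il6ra, Il10ra and the summed receptors lie right of it.

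Summed by role, ligands and receptors differed in opposite directions. The ligands Tnf, Il6 and Il12b together had 14 UMIs in KO LPS compared with 272 UMIs in WT LPS, 36.7 CPM (20.1 to 61.6) and 137 CPM (121 to 154). They were 3.72-fold lower in KO LPS (2.18 to 6.90). The 5 receptor chains together had 437 and 1425 UMIs, 1146 CPM (1041 to 1259) and 716 CPM (680 to 755), a ratio of 1.60 (1.43 to 1.78). There were 3.20 ligand UMIs per 100 receptor UMIs in KO LPS against 19.1 in WT LPS, which is 5.95-fold fewer in KO LPS (3.44 to 11.2).

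With Tnf or Il6ra left out the contrast kept its direction. Without Tnf, the ligand UMIs per 100 receptor UMIs were 2.06 in KO LPS and 6.25 in WT LPS, 3.03-fold fewer (1.51 to 6.90). Without Il6ra they were 7.18 and 40.5, 5.63-fold fewer (3.20 to 10.7). Without Tnf, however, the ligands alone were 1.90-fold lower in KO LPS with an interval that included equal levels (0.955 to 4.28), since Il6 and Il12b differed in opposite directions. Of the 89 WT LPS ligand UMIs without Tnf, 81 were of Il12b, and 62 of these came from 5 cells. The contrast without Tnf therefore rests largely on these cells, and its interval, which treats UMIs as independent, does not cover this.

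Other cell types could carry cytokine or receptor transcripts, so their markers were counted, beginning with blood cells. The defining neutrophil genes S100a8 and S100a9 were at 0 UMIs in KO LPS, whereas in WT LPS they had 81 UMIs in 47 cells and 45 UMIs in 16 cells, a difference in the direction of Tnf, Il12b and Tnfaip2 whose part in theirs was not tested. In WT LPS 6 of 10 neutrophil genes had UMIs, and the neutrophil list, 430 CPM in KO LPS compared with 264 CPM in WT LPS, consisted in KO LPS of Csf3r alone, a gene that microglia also express. The monocyte list was at 23.6 CPM in KO LPS compared with 12.6 CPM in WT LPS, with Ly6c2 at 0 in both, and border macrophage markers were at 62.9 and 46.3 CPM, of which KO LPS had Mrc1 only. The T or NK lymphocyte markers had 0 UMIs in KO LPS but 2 in WT LPS, and the B lymphocyte markers were at 99.7 and 58.3 CPM.

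Markers of cells outside the blood lineage were counted in the same way. Choroid plexus markers were at 2119 CPM in KO LPS compared with 14.6 CPM in WT LPS, astrocyte markers at 370 and 173 CPM, endothelial markers at 94.4 and 42.2 CPM, oligodendrocyte markers at 102 and 73.9 CPM, and neuronal markers at 57.7 and 65.9 CPM. Single cells carried much of the choroid plexus and endothelial values in KO LPS, since 734 of the 808 choroid plexus UMIs lay in 1 cell and 18 of the 36 endothelial UMIs in another. Without the 3 KO LPS cells that held at least 3 choroid plexus UMIs, and the 2 such cells of WT LPS, these markers were at 182 against 10.6 CPM, and without the 1 such cell of each library for endothelial markers at 47.5 against 40.3 CPM. The 3 KO LPS cells with at least 3 choroid plexus UMIs held 4 of the 437 receptor UMIs of that library. The microglia list was itself higher in KO LPS, 39420 against 29014 CPM, a ratio in the same direction as those of Il6ra, Il6st and Il10ra. The part that these lists have in the differences of the receptor genes was not tested.

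The share of cells with a UMI depends on depth, so each cell was thinned to 500 UMIs. At that depth Tnf was found in 1 of 320 cells of KO LPS, 0.312% (0.00791 to 1.73), and in 53 of 1427 cells of WT LPS, 3.71% (2.79 to 4.83). Without thinning the shares were 1.56% and 9.53%. At 1000 UMIs per cell, over 148 and 770 cells, they were 2.70% (0.741 to 6.78) and 7.92% (6.11 to 10.1), with overlapping intervals. Free RNA in the suspension gives UMIs to every droplet. Drawn from the barcodes with 100 UMIs or fewer, 500 UMIs would hold Tnf in 0% of cases in KO LPS (0 to 0.924) and in 5.69% (4.04 to 7.76) in WT LPS. The KO LPS interval overlapped with that of its cells, so the share there could not be told from background either. The Tnf share in WT LPS cells was no higher than in near-empty droplets and counts as background by this measure. The WT LPS level of Tnf was likewise no higher in the cells, 92.0 CPM (79.2 to 106), than in near-empty droplets, 117 CPM (82.5 to 162). Tnf was lower in KO LPS in the cells and also in the barcodes outside them, where it had 1 UMI compared with 107 UMIs in WT LPS (3.30 and 99.6 CPM).

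Most of the other genes were found in cells at shares close to those in near-empty droplets of the same library, and such shares count as background. Il6ra was found in 25.3% of KO LPS cells and 17.6% of WT LPS cells at 500 UMIs, against 29.5% and 20.5% expected from the near-empty droplets. Il10ra was found in 9.69% and 4.77%, against 10.5% and 4.49%. For Il6st the shares were 7.81% and 4.98%, against 6.10% and 5.69%.

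Tnfrsf1a was found in 2.81% and 2.80% of cells, against 2.73% and 3.27% in near-empty droplets, and Tnfrsf1b in 3.12% and 2.17%, against 2.73% and 1.88%. Tnfaip2 stood above the near-empty droplets in both libraries, with 1.56% of KO LPS cells against 0.502% and 2.94% of WT LPS cells against 2.04%, but its intervals overlapped with theirs. At least 1 receptor UMI was found in 43.4% of KO LPS cells and 29.5% of WT LPS cells, and at least 1 ligand UMI in 0.938% and 4.27%. Near-empty droplets would hold a receptor UMI in 44.0% and 32.1% of cases, and a ligand UMI in 0.502% and 7.17%. At 1000 UMIs per cell a ligand UMI was found in 6.08% (2.82 to 11.2) of KO LPS cells against 1.00% (0.122 to 3.57) in near-empty droplets, with overlapping intervals. In WT LPS it was found in 9.09% against 13.8%. A share of cells with a UMI therefore does not give the share of cells that express these genes.

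**Figure D3:**
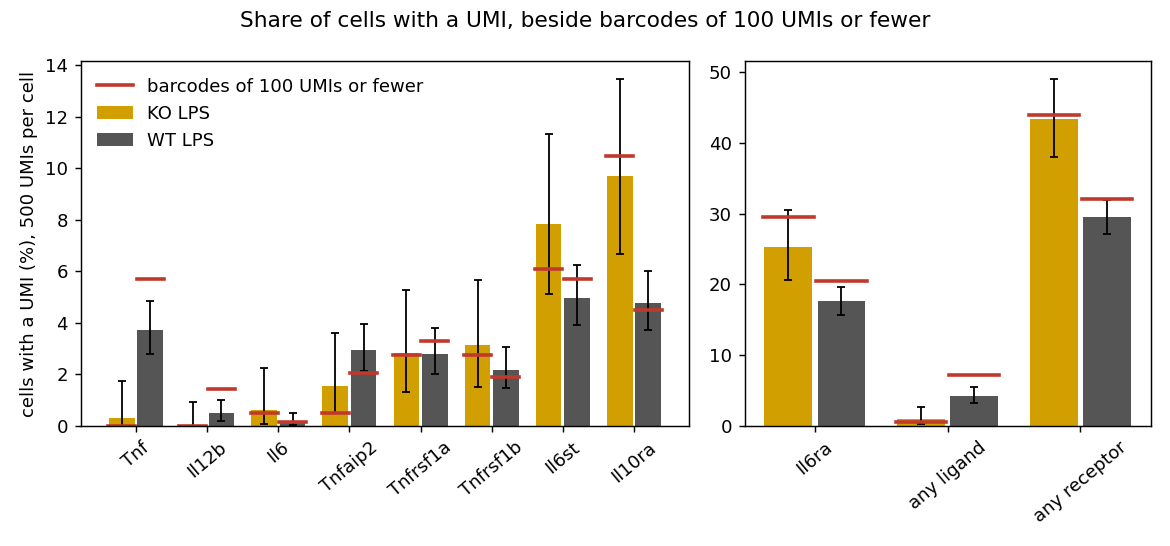
Share of cells with at least 1 UMI of each gene after thinning to 500 UMIs per cell (bars, with 95% Clopper-Pearson intervals, or up to 3 cells where no cell had a UMI) in KO LPS (yellow) and WT LPS (grey), beside the share expected from barcodes with 100 UMIs or fewer (red lines). The WT LPS bars of Tnf, Il12b and any ligand end below their red lines, and the bars of the receptor genes end near theirs.

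The UMIs of Il12b were concentrated in very few cells, which those of the receptors were not. Of its 81 UMIs in WT LPS, 20, 18, 13, 8 and 3 came from 5 cells, 76.5% of the total. At 500 UMIs per cell the variance over the mean of the UMIs per cell was 8.27 for Il12b in WT LPS, where independent single molecules give 1. It was 2.03 for Tnfaip2 and 1.31 for Tnf.

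Among the receptor genes the variance over mean was 1.04 for Il6ra, 1.06 for Il10ra, 1.08 for Il6st, 1.15 for Tnfrsf1a and 1.31 for Tnfrsf1b. Tnf at 1.31 did not stand above Tnfrsf1b, and at 1000 UMIs per cell it was at 1.20 against 1.25 for Il6ra, whereas Il12b was at 8.30 and Tnfaip2 at 1.83. In WT LPS 10 cells held at least 3 UMIs of Tnf and together 20.8% of its UMIs, and 18 cells held at least 3 UMIs of Tnfaip2 and 36.9% of its UMIs. In KO LPS 0 cells held 3 or more UMIs of Tnf, Il6, Il12b or Tnfaip2, while 23 cells did so for Il6ra. With 320 cells in KO LPS, rare cells of this kind can be missed.

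**Figure D4:**
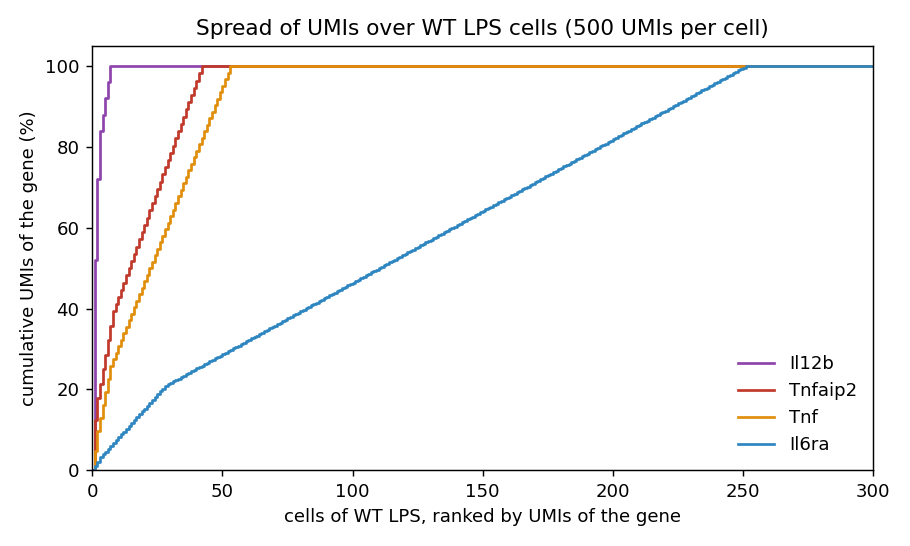
Cumulative share of a gene's UMIs (%) over WT LPS cells ranked by their UMIs of that gene, each cell thinned to 500 UMIs. The 25 UMIs of Il12b lie in 7 cells, the 56 of Tnfaip2 in 42 cells, the 62 of Tnf in 53 cells and the 282 of Il6ra in 251 cells.

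The 22 WT LPS cells with an Il12b UMI had microglia markers at the level of the other cells and held more Tnf and Tnfaip2. Microglia markers made up 30019 CPM in them and 28990 CPM in the other 1405 cells, all 22 had a microglia marker UMI, and monocyte markers had none. Their median depth was 2119 UMIs against 1057 in the others, and doublets were left in. Markers of other cells were higher too, with neuronal markers at 233 against 61.8 CPM (in 3 of the 22 cells) and astrocyte markers at 360 against 168 CPM (in 11), and their part was not tested. Tnfaip2 was at 445 CPM in them (21 UMIs) and at 85.5 CPM in the other cells, a ratio of 5.20 (3.14 to 8.22). Tnf was at 212 CPM (10 UMIs) and 89.1 CPM, a ratio of 2.38 (1.12 to 4.48). Each of the genes was seen in 6 of the 22 cells. A single Il12b UMI was all that 15 of the 22 cells held, and free RNA can give such a UMI as well.

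For the 5 receptor genes the interval of the ratio included equal levels. Il6ra was at 466 CPM in the cells with Il12b and 376 CPM in the others, a ratio of 1.24 (0.771 to 1.89), and Il10ra at 84.7 and 108 CPM, a ratio of 0.787 (0.213 to 2.05). Il6st, with 1 UMI in the cells with Il12b, was furthest from equal and opposite to Tnf, at 21.2 and 110 CPM (ratio 0.192, 0.00484 to 1.08), followed by Tnfrsf1b at 0.364 (0.00914 to 2.07). Of the 22 cells, 11 had an Xist UMI and 5 had a Y-linked UMI. The same genes met in the 18 cells with at least 3 Tnfaip2 UMIs, where Il12b was at 962 CPM against 15.5 CPM in the other cells and Tnf at 207 against 88.8 CPM. These sets of cells overlap and were chosen by the genes compared, so the values are a description within 1 library.

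Immediate early genes, which also respond to tissue dissociation, were counted in each cell to see whether the ligands went with them. In WT LPS the summed ligands were at 80.2 CPM (48.3 to 125) in the 474 cells with 0 immediate early UMIs of 500, at 131 CPM (95.7 to 174) in the 704 cells with 1 to 2, and at 193 CPM (124 to 287) in the 249 cells with 3 or more. Il12b accounted for much of this order, with 4.22, 42.6 and 72.3 CPM, while Tnf was at 71.7 (41.8 to 115), 85.2 and 120 CPM (67.4 to 199). The intervals of Tnf overlapped, and 13 of the 25 Il12b UMIs at this depth came from 1 cell. In KO LPS each of the 3 classes held 1 ligand UMI.

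The summed receptors were at 734, 696 and 723 CPM in the same 3 classes of WT LPS cells and at 1216, 1149 and 1000 CPM in KO LPS, with overlapping intervals. Tnfaip2 was at 88.6, 76.7 and 64.3 CPM in WT LPS. In the class without immediate early UMIs, WT LPS cells had 17 Tnf UMIs and the 125 KO LPS cells had 0, and the Tnf level of this class, 71.7 CPM, was below the 117 CPM of the near-empty droplets of WT LPS.

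Across single cells the genes went only weakly with any other gene. Over 1427 WT LPS cells and 2045 genes with at least 200 UMIs, Tnf was most like Il1b (Pearson r = 0.14 across cells) and Tnfaip2 was most like Ccl3 (r = 0.17), Il1b (0.14) and Nlrp3 (0.13). The receptor Il6st was most like Ywhab (r = 0.12), and the nearest genes of Tnfrsf1a, Tnfrsf1b, Il10ra and Il6ra reached 0.095, 0.095, 0.11 and 0.094. In KO LPS only Il6ra had enough UMIs, and it was most like Ifngr1 (r = 0.14 over 320 cells and 228 genes). The cells share a library and its free RNA, and correlations this weak in sparse counts single out no gene.

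The wider pathway was read from 10 lists with 181 genes, of which 96 had at least 20 UMIs. Among these 96 genes, 23 were at least 2-fold lower in KO LPS and 9 at least 2-fold higher, with a median log2 ratio of -0.02. That is 24.0% and 9.38%, beside 15.3% and 13.5% of all genes. The imbalance depended on the UMI limit, with 28 lower and 23 higher at a limit of 1 UMI, and 17 and 4 at 50 UMIs. The single lists hold 1 to 22 such genes, and their counts, which stand beside the same 2 shares, show nothing particular to a list. These lists were written with earlier results of these libraries known.

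The signalling complex below the TNF receptors had 22 genes with enough UMIs, of which 18 were within 2-fold, 2 were lower and 2 higher, where 15.3% of all genes were lower and 13.5% higher, with a median log2 ratio of 0.23. Fadd, the adaptor that recruits caspases, had the lowest ratio (1 and 20 UMIs, 0.261, 0.00629 to 1.63), and the adaptor Traf2 the highest (11 and 22 UMIs, 2.61, 1.14 to 5.61). The kinase Ripk1 was at 91.8 CPM in KO LPS compared with 103 CPM in WT LPS, which is a ratio of 0.891 (0.604 to 1.28). Tab2, which activates the kinase TAK1, was at 409 and 190 CPM, a ratio of 2.15 (1.77 to 2.60).

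In the list of other genes named as TNF-induced proteins, Tnfaip3 and Tnfaip8 were at least 2-fold lower. They were 2 of its 4 genes with enough UMIs, with 0 higher, beside 15.3% and 13.5% of all genes, and with a median log2 ratio of -1.05. Tnfaip3, which encodes A20, a brake on NF-kappaB, had 6 UMIs in KO LPS compared with 164 UMIs in WT LPS, 5.24-fold lower (2.36 to 14.5). Tnfaip8l2 had a ratio of 1.01 (0.725 to 1.39), and Tnfaip8 was at 99.7 and 229 CPM, a ratio of 0.436 (0.304 to 0.607).

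Other members of the TNF and TNF receptor families were mostly too low to compare. Of 16 other TNF family ligands only Tnfsf13b, a B lymphocyte survival factor, had enough UMIs, with 4 in KO LPS and 66 in WT LPS, which is a ratio of 0.316 (0.0837 to 0.848). Of 7 receptors of the family, 3 were lower and 1 higher, beside 15.3% and 13.5% of all genes. Relt was at 0 and 47 UMIs, hence at least 3.003-fold lower, and Tnfrsf13b, a receptor for the Tnfsf13b protein, had 42 and 94 UMIs and was 2.33-fold higher (1.58 to 3.39).

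Of 9 other interleukins and gp130 cytokines, 1 was at least 2-fold lower and 3 higher, beside 15.3% and 13.5% of all genes. Il1b, a pro-inflammatory cytokine matured by the inflammasome, had 1 UMI in KO LPS compared with 322 UMIs in WT LPS, 61.7-fold lower (11.0 to 2446), whereas Il1a had 17 and 137 UMIs, a ratio of 0.647 (0.366 to 1.07). Clcf1, a gp130 cytokine, had 17 and 16 UMIs, a ratio of 5.54 (2.63 to 11.7).

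Of 13 other interleukin receptors, 5 were at least 2-fold lower and 2 higher, beside the same shares of all genes. The 2-fold counts use log2 ratios with 0.5 UMI added to each count, by which Il1rap (8 and 21 UMIs, ratio 1.99) was counted as higher. Il1r2, the decoy receptor of interleukin 1, had 0 and 577 UMIs, at least 36.9-fold lower in KO LPS. Il15ra was at 39.3 and 296 CPM, a ratio of 0.133 (0.0739 to 0.221), and Il2rg, the common gamma chain, at 10.5 and 67.9 CPM, a ratio of 0.155 (0.0415 to 0.405). Il7r had 37 and 25 UMIs and was 7.72-fold higher in KO LPS (4.52 to 13.4).

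Of 9 genes of the signalling steps below the interleukin 6 and 10 receptors, 2 were at least 2-fold lower and 1 higher, beside those shares. Socs3, the feedback inhibitor that STAT3 induces and that binds gp130, had 6 and 272 UMIs, 8.69-fold lower in KO LPS (3.94 to 23.9), while Stat3 itself was at 142 and 127 CPM, a ratio of 1.12 (0.817 to 1.50). Jak1, the kinase bound to gp130, was at 388 and 246 CPM, a ratio of 1.58 (1.30 to 1.90). Pias3 had the highest ratio, 3.26 (1.32 to 7.64), from 10 and 16 UMIs.

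Of 12 genes that control the decay of cytokine transcripts, 10 were within 2-fold, 2 were lower and 0 higher, beside 15.3% and 13.5% of all genes. Zfp36, which binds the Tnf transcript, was at 147 and 149 CPM, a ratio of 0.984 (0.726 to 1.31). Zc3h12a, a nuclease that cuts the Il6 transcript, had the lowest ratio, 0.356 (0.127 to 0.806), and Arid5a, which stabilises it, had 0.440 (0.172 to 0.947). Rc3h2 had the highest ratio, 1.61 (0.971 to 2.56).

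Adam17, the protease that sheds tumour necrosis factor and its receptors, was at 165 and 159 CPM, a ratio of 1.04 (0.778 to 1.36), the highest of its list. Of the 4 shedding genes 1 was lower and 0 higher, beside 15.3% and 13.5% of all genes. The lower one was Rhbdf2, which brings Adam17 to the surface, with 2 and 41 UMIs (ratio 0.254, 0.0298 to 0.980). Of 15 immediate early genes 4 were lower and 0 higher, beside the same shares of all genes. Ier3 had 2 and 258 UMIs, a ratio of 0.0404 (0.00487 to 0.148), while Fos had a ratio of 1.20 (0.821 to 1.72), Jun 1.09 (0.956 to 1.23) and Jund 1.88 (1.51 to 2.32).

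**Figure D5:**
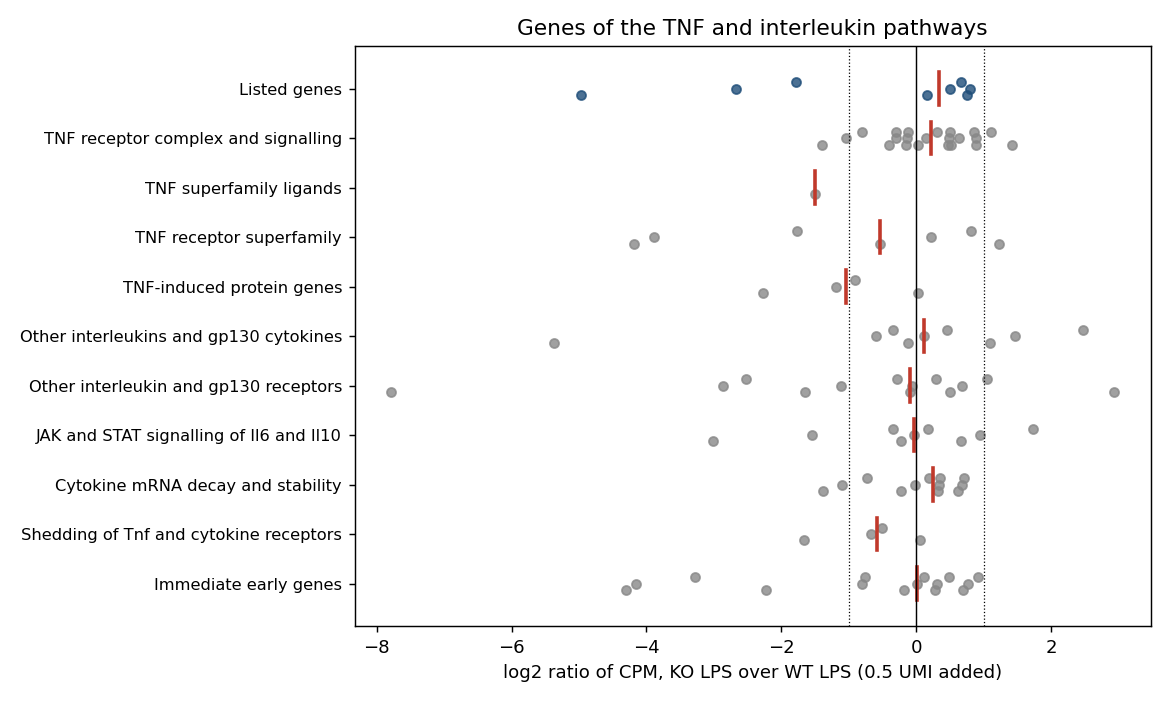
The log2 ratio of CPM, KO LPS over WT LPS, of the 8 listed genes (blue) and of the 96 list genes (grey) reaching 20 UMIs in both libraries together, with the median of each list (red line), 0.5 UMI being added to each count and dotted lines marking 2-fold. The 5 receptor chains lie between 0.16 and 0.80, and every list reaches across 0 except the TNF superfamily ligands, which have 1 gene.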

How the data were processed

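CD11b+CD45int brain cells of 2 pooled mice per genotype were profiled by Drop-seq, 1 library each. The authors deposited raw UMI counts per gene and barcode, unfiltered (KO LPS 684738 UMIs, WT LPS 3063795 UMIs, 9999 barcodes each). The submitters' processing notes name bcl2fastq 2.0, STAR and the builds mm9 and mm10 without roles. Genes not listed for a library (5616 for KO LPS, 3036 for WT LPS) were read as 0. UMIs were summed over cells and analysed in Python 3.11.15 with scipy 1.17.1, numpy 2.4.6, pandas 2.3.3 and matplotlib 3.10.9, with exact 95% Poisson, conditional binomial and Clopper-Pearson intervals, a prior count of 0.5 for log2 ratios, a floor of 3 counts, and a minimum of 20 UMIs over both libraries for counting genes as 2-fold lower or higher. The study's MAST test was not run, because cells are not replicates. Doublets were left in. The calculations were tested on simulated data. The genes named are the listed genes, Park7, the highest and lowest gene of each list, and the 3 genes most like each listed gene with at least 100 UMIs; other list genes named were chosen after their values were seen. Members and lists were chosen with earlier results of these data known. Older symbols (Otulin as Fam105b, Chil3 as Chi3l3) were matched through RefSeq. Alternatives covered the cell filter, the largest cells, ambient subtraction, scaling, the sex of the cells, the low-count filter and thinning.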

Additional observations from a re-analysis of the deposited data

Results flagged for a closer look

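Barcodes outside the cells, which served for background and not for the levels compared, held higher levels of 3 genes in KO LPS than in WT LPS by the 95% counting interval of the ratio. Tnfrsf1a, Tnfrsf1b and Il6st were also higher there, with intervals that include equal levels. Il6 was at 16.5 CPM there in KO LPS (5 UMIs) and 0.930 CPM in WT LPS (1 UMI), a ratio of 17.7 (1.98 to 838). Il10ra was at 198 CPM in KO LPS (60 UMIs) and 84.7 CPM in WT LPS (91 UMIs), a ratio of 2.34 (1.66 to 3.27). Il6ra was at 715 CPM in KO LPS (217 UMIs) and 449 CPM in WT LPS (483 UMIs), a ratio of 1.59 (1.35 to 1.87). Tnf went the other way outside the cells as well, with 3.30 CPM in KO LPS (1 UMI) and 99.6 CPM in WT LPS (107 UMIs).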

How the results depend on the processing

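The log2 ratio stayed within -2.05 to -1.41 for the ligands and 0.63 to 0.73 for the receptors over 8 alternatives, with a difference of -2.75 to -2.06 between them, and Tnf stayed within -2.75 to -2.42, Il6 within 2.02 to 3.35 and Il6ra within 0.72 to 0.77. One of the 8, leaving out the cell with most UMIs of each library, was chosen after seeing the data. Cells with a Y-linked UMI and no Xist UMI (12 in KO LPS, 195 in WT LPS) held 0 to 9 UMIs per gene in KO LPS, and a value with 0 UMIs there depends on the prior count: Il6st turned to -1.14 (0 and 23 UMIs), Il6 was at 1.24 (0 and 4 UMIs, so that its direction is set by the prior count), Tnf at -1.61 (0 and 32 UMIs) and Tnfaip2 at -0.23 (0 and 12 UMIs). Tnfrsf1a went to 1.45, Il10ra to 0.29 and the receptors to 0.51, and Il12b gave no value. The count of list genes at least 2-fold higher in KO LPS, 9, was 14 in those cells, 23 with a limit of 1 UMI and 4 with a limit of 50 UMIs. The count at least 2-fold lower, 23, was 21, 28 and 17 in the same order. The share of cells with a ligand UMI was 3.75% in KO LPS and 11.1% in WT LPS without thinning and 6.08% and 9.09% at 1000 UMIs per cell, and that with a receptor UMI was 68.75% and 54.0% without thinning and 65.5% and 46.6% at 1000 UMIs. The cause of these changes was not tested. Leaving aside the alternative of Y-linked cells, 118 values stayed in direction and within their counting interval or 1.5 times their count, and 10 moved. No paired analysis was possible because each genotype has 1 library. Depth limits KO LPS most, where 1 UMI is 2.62 CPM.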
